A study of Mus musculus with 88 samples.

Results

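Primitive streak regulators are the genes that mark and pattern the streak of the gastrulating embryo. The 9 genes followed here are T, Eomes, Mixl1, Mesp1, Gsc, Lhx1, Evx1, Tbx6, and Fgf8, chosen by name from the tables of the directed mesoderm and endoderm series, of bulk embryoid bodies, and of single cells. The tables list 37690, 38368, 26007, and 15830 genes. All 9 members are listed in each of them, and 4 (T, Eomes, Mixl1, Evx1) passed the filter on low counts in the mesoderm series, 7 (all but Mesp1 and Gsc) in the endoderm series, and 8 (all but Mesp1) in the embryoid bodies.

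The samples come from a study of Polycomb repressive complex 2 (PRC2), the enzyme complex that methylates histone H3 at lysine 27. MTF2 and JARID2 are accessory subunits that recruit it, and EED is a core subunit. In the directed series, ESCs labelled E14 that were wild type (WT, 129/Ola background), Mtf2 null (homozygous gene trap), or Jarid2 null were taken undifferentiated (UD) from serum with LIF and at 5, 24, and 48 h of monolayer culture. Both series received Activin A, the Wnt agonist CHIR, and FGF2 for the first 24 h, with BMP4 added for mesoderm. The stated doses of Activin A and CHIR differed between the series, with more CHIR for mesoderm. Mesoderm cultures then received BMP4 with the TGF-beta inhibitor A-83-01, and endoderm cultures Activin A with the BMP inhibitor DM3189. Each genotype and time has 2 libraries per series (48 libraries), which the study calls technical duplicates, so that p-values measure the spread between libraries and not between cultures, and genotype cannot be told apart from cell line. Embryoid bodies (EBs) are aggregates that differentiate without added inducers. Bulk EBs carry the labels Mtf2 null beside a Pcl1-3 WT line, Jarid2 null beside JM8, and Eed null beside J1, with 1 sample per line on each of days 0, 2, 4, and 7 (24 samples). Most samples have 2 deposited columns, which were added here, so no spread between columns is given. The study calls its bulk RNA duplicates technical, and the day 0 columns are named mono and not EB. Single cells of EBs labelled E14 came from 4 genotypes (WT and nulls of Mtf2, Jarid2, and Eed) and were sorted into the wells of plates. There is 1 library for each genotype on each of days 0, 4, 7, and 10 (16 libraries, 4949 cells). The authors assigned the cells to 22 clusters. The study names matched WT lines for bulk RNA and ChIP only, so in single cells, too, genotype cannot be told apart from cell line.

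The primitive streak forms at the posterior of the epiblast under Nodal, Wnt, and BMP signals, and cells that pass through it become mesoderm or definitive endoderm. T (Brachyury), Eomes, and Tbx6 are T-box factors: T is needed for posterior mesoderm and the notochord, Eomes for anterior mesoderm and definitive endoderm, and Tbx6 for paraxial mesoderm. Mixl1, Gsc, Evx1, and Lhx1 are homeobox factors, Gsc and Lhx1 of the anterior streak and Evx1 of the posterior streak. Mesp1 is a basic helix-loop-helix factor of nascent, including cardiac, mesoderm, and Fgf8 is the streak's growth factor, which cells need to migrate out of it.

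In GRCm38 (GENCODE vM21 annotation), T lies on chromosome 17 (8434423 to 8442496, plus strand), Eomes on 9 (118478212 to 118486132, plus), Mixl1 on 1 (180693043 to 180697034, minus), and Mesp1 on 7 (79792241 to 79793788, minus). Gsc lies on 12 (104471209 to 104473330, minus), Lhx1 on 11 (84518284 to 84525535, minus), Evx1 on 6 (52313498 to 52318378, plus), Tbx6 on 7 (126781483 to 126785560, plus), and Fgf8 on 19 (45736798 to 45742915, minus). An antisense gene shares 118 bases of exon with Eomes (Gm33460) and 73 bases with Evx1 (Evx1os). Whether the counting used strand is not given in the sources used here, so reads of these pairs cannot be told apart.

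RefSeq promoters (GRCm38.p6, 250 bases before to 50 bases after the start) matched 7 of the 9 members, all but Mixl1 and Fgf8. Of 32851 promoters of that length, the median held 52.7% G and C (interquartile range 45.7 to 61.7%) and 7 CpG pairs (3 to 20). Lhx1 held 31 CpG pairs (65.7% G and C), Gsc 25, T 17 (61.7%), Evx1 12, Eomes 10 (47.3%), Tbx6 7, and Mesp1 4 (55.3%). PRC2 is known to be recruited to CpG-rich promoters, and 4 members that the results below turn on are printed to show this range, 5′ to 3′ on the gene's own strand, with CpG pairs in capitals: T at chr17:8434173-8434472 (plus), Eomes at chr9:118477939-118478238 (plus), Mesp1 at chr7:79793541-79793840 (minus), and Lhx1 at chr11:84525485-84525784 (minus).
T: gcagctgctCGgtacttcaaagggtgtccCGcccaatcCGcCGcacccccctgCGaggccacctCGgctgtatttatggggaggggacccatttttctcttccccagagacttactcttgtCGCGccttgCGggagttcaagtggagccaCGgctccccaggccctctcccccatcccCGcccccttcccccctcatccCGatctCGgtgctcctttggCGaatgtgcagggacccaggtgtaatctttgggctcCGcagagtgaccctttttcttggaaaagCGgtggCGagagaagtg
Eomes: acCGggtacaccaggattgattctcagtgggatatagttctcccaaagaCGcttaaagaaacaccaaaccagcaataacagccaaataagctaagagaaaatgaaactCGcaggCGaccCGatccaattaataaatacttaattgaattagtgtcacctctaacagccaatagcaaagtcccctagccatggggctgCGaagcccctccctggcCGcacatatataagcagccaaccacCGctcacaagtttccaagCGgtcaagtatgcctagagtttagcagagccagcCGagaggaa
Mesp1: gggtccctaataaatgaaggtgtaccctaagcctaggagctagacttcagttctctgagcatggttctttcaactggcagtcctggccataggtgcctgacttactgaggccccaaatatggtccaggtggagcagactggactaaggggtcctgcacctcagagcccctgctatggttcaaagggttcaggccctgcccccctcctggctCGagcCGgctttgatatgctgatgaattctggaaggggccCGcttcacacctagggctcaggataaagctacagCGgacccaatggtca
Lhx1: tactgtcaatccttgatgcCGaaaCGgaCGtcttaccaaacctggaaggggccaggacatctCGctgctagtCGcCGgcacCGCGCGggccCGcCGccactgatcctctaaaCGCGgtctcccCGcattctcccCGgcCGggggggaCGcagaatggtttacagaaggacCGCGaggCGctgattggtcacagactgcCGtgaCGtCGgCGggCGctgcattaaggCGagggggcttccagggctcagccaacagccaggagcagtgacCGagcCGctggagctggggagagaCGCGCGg
Both strands of the 7 windows were searched for 4 motifs. The T-box motif AGGTGNGA (5.43% of all promoters) and the TCF/LEF motif CTTTGAT (3.73%) were each found in Mesp1 alone, at positions 6 (minus strand) and -31 (plus strand) relative to the start. The FOXH1 motif AATCCACA (0.855%) and the GATA motif AGATAA (11.2%) were found in none of the 7. A match describes the letters and shows no binding.

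The mesoderm libraries held 9111880 to 16898264 counts, the endoderm libraries 9889592 to 16372804, and the EB columns 3005707 to 22944105 reads. Mtf2 was lower in Mtf2 null than in WT libraries of the directed series (31.1 to 36.8 against 217 to 508 CPM, counts per 1000000 counts of the library after TMM scaling, in the endoderm series). Jarid2 RNA was not lost in Jarid2 null libraries (282 to 570 against 307 to 608.1 CPM over all times of that series), which says nothing of the protein. In both series it was lower than in WT without overlap in UD cells and at 5 and 24 h (endoderm 24 h, 287.3 and 282.3 against 338.8 and 334.1 CPM). At 48 h it was higher than in WT in the endoderm series (346.2 and 376.5 against 326.5 and 306.9 CPM) and overlapped with WT in the mesoderm series. In the bulk EBs none of the 3 labels had lost the RNA of its targeted gene (Mtf2 164 to 317 CPM against 324 to 441 in its WT line, Jarid2 220 to 661 against 277 to 641, Eed 58.2 to 206 against 52.1 to 245), so those samples are called libraries labelled Mtf2, Jarid2, or Eed null. In single cells, Mtf2, Jarid2, and Eed were each lower in their own null libraries (53.7 to 61.1 against 365 to 794, 115 to 185 against 215 to 595, and 1.3 to 11.5 against 115 to 478 UMI CPM in WT). In bulk samples, fewer expressing cells and less RNA per cell cannot be told apart.

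T rose sharply and briefly in the directed series, and at 24 h of endoderm differentiation it was lower in Mtf2 null than in WT and Jarid2 null cells. Eomes rose in every genotype by 24 h and stayed up at 48 h. Lhx1 exceeded 0.407 CPM only in Mtf2 null cells at 48 h of endoderm differentiation, and the remaining members stayed low. Calls rest on edgeR's quasi-likelihood test over all genes, and need a change of more than 2-fold at a p under 0.001 after Benjamini-Hochberg adjustment. In the mesoderm series 13 of 36 tests of members against UD were called, all of them increases, where 6.44% of all tests of all genes were called. In the endoderm series 13 of 63 were called, again all increases, against 5.25%. Between genotypes 1 of 40 tests was called in the mesoderm and 4 of 70 in the endoderm series (all genes 4.94% and 5.31%).

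**Figure D1:**
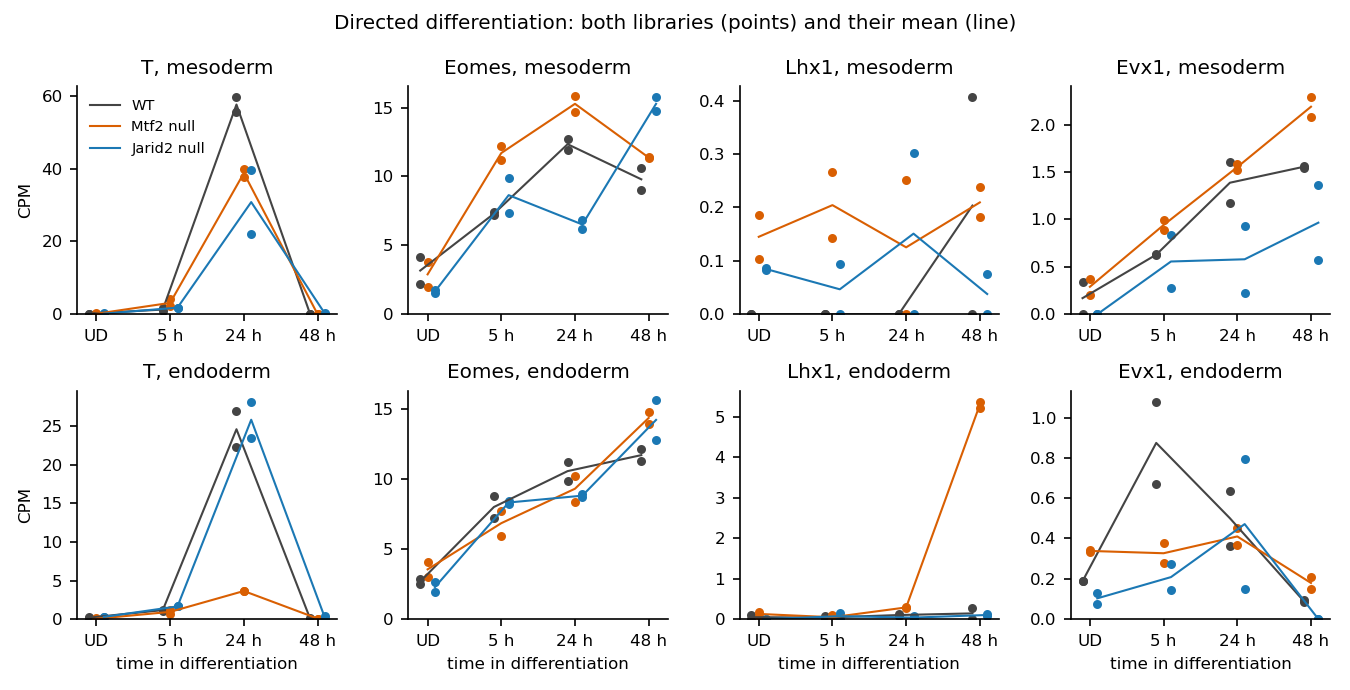
Levels in CPM (y axis) of T, Eomes, Lhx1, and Evx1 in undifferentiated cells and at 5, 24, and 48 h (x axis) of mesoderm and endoderm differentiation in WT, Mtf2 null, and Jarid2 null cells; points are the 2 libraries and lines their mean. T peaks at 24 h in every genotype, with Mtf2 null cells at 3.60 and 3.69 CPM in the endoderm series, and Lhx1 is seen at 48 h of the endoderm series in Mtf2 null cells at 5.38 and 5.23 CPM.

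T was nearly absent from UD cells, with 0 to 0.323 CPM over the 12 UD libraries of both series. In mesoderm differentiation, WT libraries held 0.902 and 1.67 CPM at 5 h, 55.5 and 59.7 CPM at 24 h, and 0.0652 and 0 CPM at 48 h. Mtf2 null libraries held 2.13 and 4.12, then 39.95 and 37.6, then 0 and 0.0791 CPM. Jarid2 null libraries held 1.85 and 1.78, then 22.0 and 39.7, then 0.284 and 0.0758 CPM. The 24 h libraries of every genotype stood far above those of every other time, and WT stood above both null genotypes without overlap. From UD to 24 h, T rose by a log2 change of 8.22 ± 0.468 (n = 2 libraries per group) in WT (edgeR adjusted p = 1.43e-10), 7.94 in Mtf2 null (1.27e-09), and 7.42 in Jarid2 null cells (1.21e-09). The value after ± is the change over the root of the test's F, which is no standard error where UD libraries are near 0. The size of the Mtf2 null change rests on UD libraries near 0 and ran from 7.03 to 11.8 without 1 library. At 48 h T was not called against UD in any genotype of either series (log2 differences of -2.04 to 0.66).

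The mesoderm differences in T between genotypes did not pass the call rule. At 24 h the log2 difference from WT was -0.57 ± 0.244 in Mtf2 null (edgeR adjusted p = 0.103) and -0.91 ± 0.247 in Jarid2 null cells (adjusted p = 0.0116). At 5 h it was 1.33 ± 0.440 in Mtf2 null cells (edgeR adjusted p = 0.0279), and the rise from UD to 5 h was called in Mtf2 null cells (log2 change 4.34, adjusted p = 6.31e-05) and not in the other genotypes of this series, a difference between rises that was not tested. Single libraries moved these values: without 1 library the Jarid2 null difference at 24 h ran from -1.33 to -0.54, the Mtf2 null difference at 5 h from 0.77 to 1.81, and the Mtf2 null rise to 5 h from 3.46 (without the UD library at 0 CPM) to 8.23 (without the other UD library), and its call was lost without the UD library at 0 CPM (edgeR adjusted p = 0.00215) or the 5 h library at 4.12 CPM (0.00224).

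In endoderm differentiation, T reached 27 and 22.3 CPM at 24 h in WT and 23.5 and 28.2 CPM in Jarid2 null cells. Mtf2 null libraries held 3.60 and 3.69 CPM, on 39 and 49 counts against 372 and 349 in WT. Per length, the mean level of T was 10.6 RPKM (CPM per kilobase of exon) in WT, 11.2 in Jarid2 null, and 1.57 in Mtf2 null cells. The Mtf2 null libraries lay below all 4 others. T was lower in Mtf2 null than in WT cells by a log2 difference of -2.75 ± 0.267 (n = 2 against 2 libraries, edgeR adjusted p = 7.99e-08) and than in Jarid2 null cells by -2.82 ± 0.268 (adjusted p = 5.86e-08), each the only 1 of 7 tested members called at 24 h, where 6.58% of all genes were called in both comparisons. Jarid2 null and WT cells differed by 0.07 ± 0.227 (edgeR adjusted p = 0.969, with 0 of 7 members and 0.0312% of all genes called). T still rose in Mtf2 null cells from 0.0835 and 0 CPM in UD (log2 change 6.14 ± 0.670, edgeR adjusted p = 1.13e-06), beside 6.96 ± 0.428 in WT (1.88e-10) and 6.48 in Jarid2 null cells (1.22e-10), and without 1 library the Mtf2 null change ran from 5.30 to 8.56. Since T was near 0 in UD cells, the change of the Mtf2 null difference from UD to 24 h had a wide error (-0.82 ± 2.33, edgeR adjusted p = 0.872), and whether the Mtf2 null difference at 24 h differed between the mesoderm and endoderm series was not tested. The WT rise itself did not differ detectably between mesoderm and endoderm (log2 difference 1.28 ± 1.26, edgeR adjusted p = 0.974).

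Eomes was detected in all UD libraries and rose in both series. In mesoderm differentiation WT libraries held 4.13 and 2.21 CPM in UD cells, 7.40 and 7.20 at 5 h, 12.7 and 12.0 at 24 h, and 9.00 and 10.6 at 48 h. Mtf2 null libraries held 3.82 and 1.97, then 12.2 and 11.2, then 15.9 and 14.7, then 11.3 and 11.4 CPM. Jarid2 null libraries held 1.57 and 1.73, then 9.91 and 7.38, then 6.87 and 6.16, then 14.8 and 15.8 CPM. At 24 h the Jarid2 null libraries were the lowest and the Mtf2 null libraries the highest, while at 48 h the Jarid2 null libraries were the highest. At 24 h Mtf2 null stood above Jarid2 null cells by a log2 difference of 1.22 ± 0.218 (edgeR adjusted p = 1.92e-04), the only member of 4 called in that comparison, where 8.97% of all genes were called. It is also the 1 call in 40 genotype tests of members in the mesoderm series, where 4.94% of all such tests of all genes were called, and leaving out any 1 of its 4 libraries ended it. The differences from WT at 24 h were not called (-0.92 ± 0.220, edgeR adjusted p = 0.00528, for Jarid2 null and 0.31, adjusted p = 0.325, for Mtf2 null cells). From UD to 48 h the Jarid2 null difference from WT changed by 1.56 ± 0.372 on the log2 scale (edgeR adjusted p = 0.0343), which missed the limit of 0.001.

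In endoderm differentiation Eomes rose without a called difference between the 3 genotypes. WT libraries held 2.84 and 2.52 CPM in UD cells, 8.79 and 7.20 at 5 h, 9.87 and 11.2 at 24 h, and 11.2 and 12.1 at 48 h. At 48 h Mtf2 null libraries held 13.9 and 14.8 CPM and Jarid2 null libraries 12.8 and 15.6 CPM. The rise from UD to 48 h was called in WT (log2 change 2.12), Mtf2 null (2.01), and Jarid2 null cells (2.62, edgeR adjusted p = 2.24e-09). In mesoderm differentiation the corresponding changes were 1.64 (2.77e-05), 1.96, and 3.20 (1.15e-08). Leaving out 1 library ended the call in WT mesoderm at 48 h (without the UD library at 2.21 CPM, 1.24, edgeR adjusted p = 0.00199) and in Mtf2 null endoderm at 24 h (without the 24 h library at 10.2 CPM or the UD library at 3.00 CPM, adjusted p = 0.00147 and 0.00262). In WT endoderm at 24 h, Eomes reached a mean of 2.54 RPKM against the 10.6 RPKM of T.

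Lhx1, a LIM homeobox factor of the anterior streak and its derivatives, had a single place of expression. At 48 h of endoderm differentiation Mtf2 null libraries held 5.38 and 5.23 CPM (72 and 75 counts), WT libraries 0 and 0.282 CPM (0 and 3 counts), and Jarid2 null libraries 0.138 and 0.0652 CPM (2 and 1 counts). Every other endoderm library held at most 0.301 CPM and every mesoderm library at most 0.407 CPM. The log2 difference of Mtf2 null from WT cells was 5.19 ± 0.748 (edgeR adjusted p = 1.36e-05) and from Jarid2 null cells 5.59 ± 0.738 (adjusted p = 4.92e-06), 1 of 7 members called in each, with 10.5% and 9.84% of all genes called. Because WT held 3 counts in all, the size rests on 1 library: without the WT library at 3 counts the fitted difference was 9.11, and without the other WT library 4.18. Lhx1 also rose in Mtf2 null cells from UD to 48 h (5.28 ± 0.745, edgeR adjusted p = 1.28e-05, or 0.00125 and not called without the UD library at 0.0835 CPM), while the change of the difference from WT was not called (3.92 ± 2.45, adjusted p = 0.289).

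Markers of visceral endoderm, an extraembryonic tissue that also expresses Lhx1, were higher in the same Mtf2 null libraries, and also in Mtf2 null libraries where Lhx1 was low. Of the 7 markers (Afp, Apoa1, Ttr, Amn, Cubn, Sox7, Dab2), 5 were tested and all 5 rose in Mtf2 null against WT cells at 48 h of endoderm differentiation. Their summed level was 1646 and 1557 CPM in Mtf2 null, 22.1 and 17.7 in WT, and 16.7 and 17.4 in Jarid2 null libraries. The receptor gene Cubn led with 1270 and 1239 against 13.2 and 11.0 CPM in WT, while Ttr (8.00 and 6.83 CPM) and Afp (0.224 and 0.0697 CPM) were at 0 in WT, and Apoa1 was at or near 0 in both. The sum was already higher in Mtf2 null UD cells of that series (227 and 276 against 27.6 and 21.1 CPM in WT), where Lhx1 was not. At 48 h of mesoderm differentiation it reached 943 and 1077 CPM against 29.1 and 28.1 in WT, with Lhx1 at no more than 0.407 CPM. Beside the 24 h difference in T, the sum was 174 and 143 CPM in Mtf2 null and 7.40 and 6.89 CPM in WT libraries. The part of such cells in either result was not tested.

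Evx1, a factor of the posterior streak, stayed low. In mesoderm differentiation WT libraries held 0 and 0.34 CPM in UD cells and 1.57 and 1.55 CPM at 48 h, and Mtf2 null libraries 0.373 and 0.207, then 2.09 and 2.29 CPM. Jarid2 null libraries held 0 CPM in UD cells and 0.568 and 1.36 CPM at 48 h. The rise from UD to 48 h was called in Jarid2 null cells (log2 change 6.54 ± 1.37, edgeR adjusted p = 9.08e-04), against UD libraries at 0, so that its size is set by the fit and is no measured fold, and the call was lost without either UD library or the 48 h library at 1.36 CPM (edgeR adjusted p = 0.00936 to 0.0161). No genotype difference in Evx1 was called in either series. At 48 h of endoderm differentiation its log2 difference of Mtf2 null from Jarid2 null cells, not called, ran from 4.03 to 4.5 with 1 library left out.

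The other 5 members never exceeded 1.28 CPM in any directed library. Mixl1 reached 1.28 and 1.03 CPM at 24 h in Jarid2 null mesoderm. Mesp1 stayed at or below 0.414 CPM in the mesoderm series, Gsc at or below 0.522, Tbx6 at or below 0.85, and Fgf8 at or below 0.952. In the endoderm series, Gsc reached 0.523 and 0.558 CPM (7 and 8 counts) in Mtf2 null cells at 48 h, and Fgf8 1.27 and 0.627 CPM in the same libraries. Differences at this depth were not detectable for Mesp1 and Gsc, which passed the filter in neither series.

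Several genes that define the cell types the 2 protocols aim at were low or absent in WT, and others were not. In WT mesoderm at 48 h, Kdr held 0.196 and 0.0814 CPM and the paraxial factor Msgn1 0.0652 and 0.0814 CPM, while Hand1 reached 4.50 and 5.86 CPM and Lfng 8.09 and 10.2 CPM. In WT endoderm at 48 h, Foxa2 held 0.346 and 0 CPM, Sox17 0.173 and 0.376 CPM, and Cer1 0 in both libraries, while Otx2 reached 81.9 and 55.2 CPM and Hhex 4.76 and 4.14 CPM. Mtf2 null endoderm held 19.8 and 15.6 CPM of Foxa2 and 34.2 and 30.6 CPM of Sox17 at that time. The summed level of 6 markers of pluripotent cells was 1153 and 1147 CPM in WT mesoderm and 538 and 532 CPM in WT endoderm at 48 h.

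The wider pathway was read from 3 lists: 15 signals that induce the streak with their direct targets, 15 genes of nascent and paraxial mesoderm, and 11 of the anterior streak and definitive endoderm. From UD to 24 h of WT mesoderm differentiation, 7 of 14 tested signal genes rose, among them Wnt3 (log2 change 6.02), the Wnt targets Sp5 (4.94) and Axin2 (3.71), the Nodal antagonist Lefty2 (2.07), and Nodal itself (1.04), while the Nodal co-receptor Tdgf1 (-3.07) and Fgf4 (-1.05) fell. The median of the list was 1.14, against 0.01 over all genes, and 6.96% of all genes were called. Of the mesoderm genes 3 of 12 rose (Cdh2, Cdx1, Cdx2), and of the endoderm genes 0 of 8. In WT endoderm at 24 h, 6 of 15 signal genes rose (Wnt3, Wnt8a, Axin2, Sp5, Lefty1, Lefty2) and Tdgf1 fell, where 5.31% of all genes were called.

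Members of the signal list also differed between genotypes. In Mtf2 null against WT endoderm at 24 h, 3 of 15 fell, Sp5 by 1.87, Bmp4 by 1.61, and Lefty2 by 1.35 on the log2 scale, with a list median of -0.13, where 6.58% of all genes were called. In the same comparison the endoderm factors Foxa2 (5.96) and Sox17 (3.92) rose and Otx2, a factor of the anterior epiblast and endoderm, fell (-4.25), 3 of 7 tested. In Jarid2 null against WT mesoderm at 24 h, where the difference in T was not called, 5 of 14 signal genes fell (Lefty1 -3.84, Lefty2 -1.99, Fgf4 -1.91, Sp5 -1.28, Bmp4 -1.07), with a list median of -0.78 against -0.04 over all genes and 1.97% of all genes called. In Jarid2 null against WT endoderm at 24 and 48 h, 0 genes of the 3 lists were called by edgeR, where 0.0312% and 0.125% of all genes were called. At 48 h of endoderm differentiation, beside the rise of Lhx1, 4 of 7 endoderm genes were higher in Mtf2 null than in WT cells (Sox17 6.85, Foxa2 6.54, the BMP antagonist Nog 4.30, Hhex 1.54) and Otx2 was lower (-2.16), where 10.5% of all genes were called.

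The genes whose pattern over the 24 libraries was most like the mean of the tested members were Htr1b (r = 0.927), Mboat7 (0.909), Tcf7 (0.897), Slc18b1 (0.897), and Rfx7 (0.894) in the mesoderm series and P4hb (0.836), Mknk2 (0.832), Utp14b (0.827), Shtn1 (0.823), and Lpcat1 (0.817) in the endoderm series. These correlations describe libraries that share genotypes and times.

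In the bulk EBs the members reached higher CPM than in the directed series, whose tables were normalized separately, and in 5 of the 6 lines most members peaked on day 4. The library labelled Jarid2 null had the highest level of 8 of the 9 members on that day, and the line labelled Eed null stood below its WT line for all 9. No member passed the test of a line against its WT line over the 4 days, which takes the mean difference over days and cannot judge day 4 alone.

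**Figure D2:**
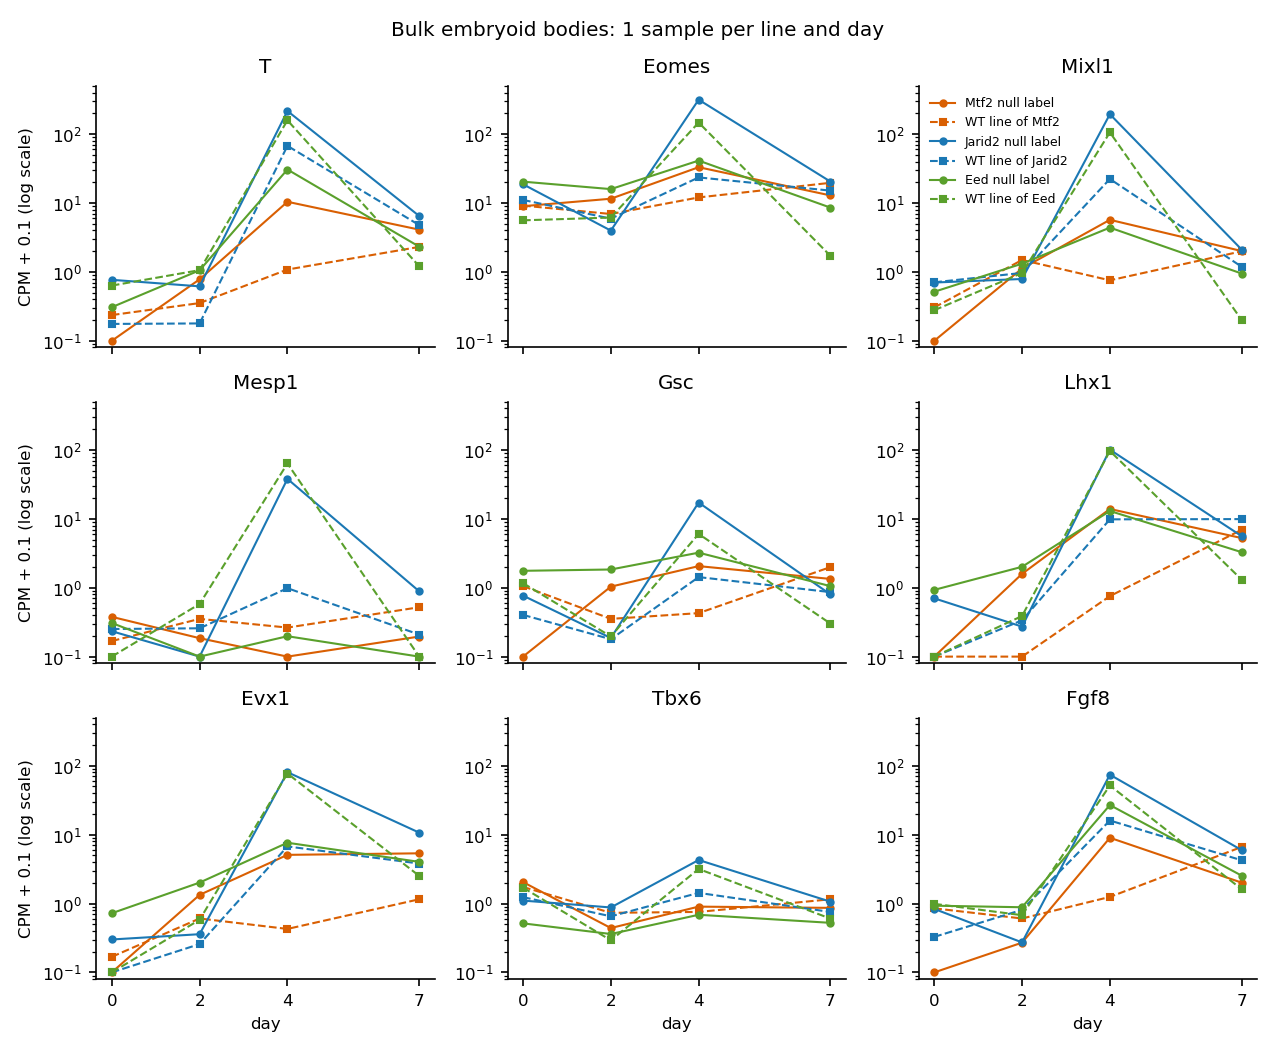
Levels of the 9 members (y axis, CPM + 0.1 on a log scale) on days 0, 2, 4, and 7 of bulk EB differentiation (x axis); solid lines with circles are the libraries labelled null, dashed lines with squares their WT lines, 1 sample per point. On day 4 T spans 0.983 CPM in the Pcl1-3 WT line to 217 CPM in the library labelled Jarid2 null.

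T on days 0, 2, 4, and 7 was at 0.669, 0.518, 217, and 6.39 CPM in the line labelled Jarid2 null and at 0.0759, 0.0788, 67.5, and 4.69 CPM in JM8. It was at 0.208, 0.957, 30.6, and 2.23 CPM in the line labelled Eed null and at 0.534, 0.961, 159, and 1.11 CPM in J1. It was at 0, 0.681, 10.3, and 4.01 CPM in the line labelled Mtf2 null and at 0.137, 0.253, 0.983, and 2.21 CPM in its Pcl1-3 WT line. Among WT lines alone, day 4 thus ran from 0.983 to 159 CPM. The T level peaked on day 4 in 5 of the 6 lines.

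Eomes on day 4 followed a similar order, with 316 CPM in the library labelled Jarid2 null, 147 in J1, 41.2 in that labelled Eed null, 33.03 in that labelled Mtf2 null, 23.5 in JM8, and 12.0 in Pcl1-3 WT. Lhx1 stood at 100.8 CPM under the Jarid2 label and 96.6 in J1, and at 0.656 to 13.8 in the other 4. Evx1 stood at 80.6 CPM under the Jarid2 label and at 0.328 to 7.52 in the 4 lines other than J1, in which it was nearly as high (77 CPM). Mixl1 reached 195 CPM under the Jarid2 label and 106 in J1, and Fgf8 74.0 and 51.6. Mesp1 was the exception in that J1 was highest, with 63.5 CPM against 37.9 under the Jarid2 label, and every other line held at most 0.885 CPM. Gsc ran from 0.328 to 17.1 CPM and Tbx6 from 0.586 to 4.18 CPM over the 6 lines. Per length, the day 4 library labelled Jarid2 null held T at 93.7 and Eomes at 76.1 RPKM.

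Against its own WT line on day 4, the library labelled Jarid2 null was higher for 9 of 9 members, 3.21 times for T, 13.5 for Eomes, 8.75 for Mixl1, 10.4 for Lhx1, 12.1 for Evx1, and 4.65 for Fgf8. The library labelled Eed null was lower for 9 of 9, at 0.193 times its WT line for T, 0.280 for Eomes, 0.0406 for Mixl1, 0.134 for Lhx1, and 0.519 for Fgf8. This order did not hold on the other days: on day 7 the Eed label stood above J1 for T (2.01 times), Eomes (5.26), Lhx1 (2.63), Evx1 (1.62), and Fgf8 (1.61), and Eomes was also above J1 on day 0 (3.69) and day 2 (2.61). The library labelled Mtf2 null was higher for 8 of 9, 10.5 times for T (on 6 reads in its WT line) and 2.76 for Eomes (on 73). On day 7 it stood below its WT line for Eomes (0.655 times), Gsc (0.656), Lhx1 (0.755), Tbx6 (0.727), and Fgf8 (0.293). It stood above for T (1.82) and Evx1 (5.00) on that day, and Mixl1 was level (1.01). These ratios compare single samples, each with its columns added, and carry no test. Over the 4 days as a block, the log2 difference of T was 1.04 ± 0.929 for the Mtf2 label (limma adjusted p = 0.469), 1.30 for the Jarid2 label (adjusted p = 0.376), and -0.59 for the Eed label (adjusted p = 0.726). Of 24 such tests of members, 0 were called by limma, 0 had an unadjusted p under 0.05, and edgeR called 0. Each tests a mean over the 4 days, so they cannot decide the day 4 differences. Over all genes the shares called were 18.4%, 14.9%, and 10.9% for the Mtf2, Jarid2, and Eed labels. Between labels 0 of 24 were called by limma and by edgeR (1 at an unadjusted p under 0.05, Tbx6 in the Jarid2 against the Eed label, log2 difference 1.44, adjusted p = 0.193), where the 3 comparisons called 1.52%, 3.07%, and 4.91% of all genes.

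Visceral endoderm markers on day 4 summed to 932 against 18.2 CPM for the Mtf2 label and its WT line, to 883 against 33.6 for the Jarid2 label, and to 397 against 106 for the Eed label. Pluripotency markers summed to 1053 against 887, 566 against 597, and 1007 against 375 CPM. Their part in the levels of the members was not tested.

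In single EB cells the UMIs of the members were concentrated on day 7, and cluster 14 held more of them than any other cluster. WT had the highest level of 8 of the 9 members on that day, the exception being Lhx1. Of these 8, Gsc was nearly level (12 UMIs in WT and 13 in Mtf2 null cells), and Tbx6 rests on 18 UMIs in WT. Mesp1 ranged from 135 UMI CPM (UMIs are unique molecular identifiers, which count captured mRNA molecules) in WT to 1.70 in Eed null cells. There is 1 library per genotype and day, so the differences have no replicate check, and the intervals given (95%, exact Poisson for levels and Clopper-Pearson for shares) cover counting error only. All levels of single cells are UMI CPM, a gene's UMIs per 1000000 UMIs summed over the cells. The median cell held 6650 UMIs (1143 to 105019), and day 7 libraries held 302 to 344 cells with medians of 5272 to 6313 UMIs. Each of the well barcodes recurs in at least 2 libraries, so cells were identified by library and barcode. No doublet caller was run on wells that received 1 sorted cell.

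**Figure D3:**
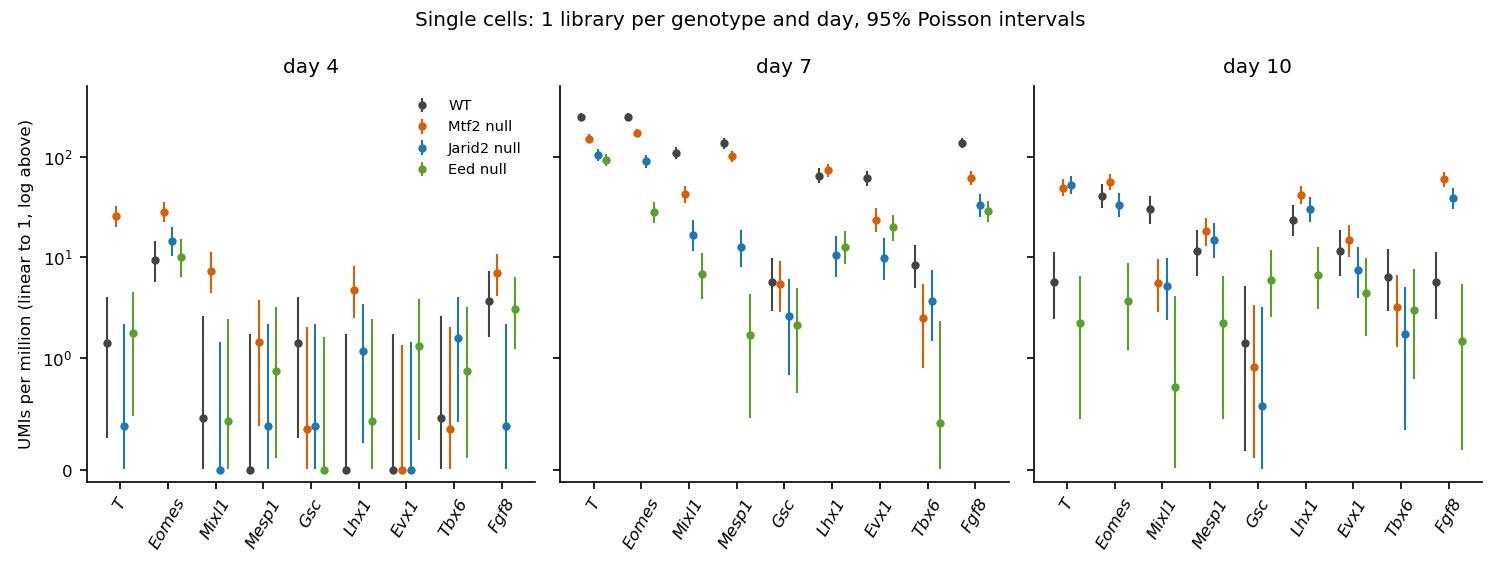
Levels in UMI CPM (y axis, linear to 1 and logarithmic above) of the 9 members (x axis) on days 4, 7, and 10 in EBs of the 4 genotypes; points are single libraries and bars 95% Poisson intervals for counting error. On day 7 WT is highest for every member but Lhx1, though Gsc is nearly level (5.65 in WT and 5.40 in Mtf2 null cells). On day 4 only the Mtf2 null library stands above 20 for T.

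Day 7 held 81.6% of all 1592 UMIs of T, 85.7% of 650 UMIs of Mesp1, 80.0% of 476 UMIs of Mixl1, and 69.5% of 1689 UMIs of Eomes. T stood at 246 (226 to 268) in WT, 150 (135 to 166) in Mtf2 null, 104 (89.9 to 119) in Jarid2 null, and 92.1 (80.3 to 105) in Eed null cells. The Jarid2 null and Eed null intervals overlap, and the others do not. Eomes stood in the same order over a wider range, with 247 (227 to 269), 171 (155 to 189), 89.7 (76.8 to 104), and 28.02 (21.7 to 35.7). Mesp1 stood at 135 (120 to 152), 101 (88.3 to 114), 12.6 (8.07 to 18.7), and 1.70 (0.463 to 4.35), the last on 4 UMIs in 3 cells. Mixl1 stood at 109, 42.4, 16.8, and 6.79, with no overlap between the intervals of any genotypes. Markers of other cells differed as well: the 7 visceral endoderm markers summed to 295 UMI CPM in WT, 33.2 in Mtf2 null, 21.5 in Jarid2 null, and 62.8 in Eed null cells on day 7, and the 6 pluripotency markers to 474, 212, 492, and 759. Their part in the levels of the members was not tested.

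Lhx1 stood at 73.5 (63.1 to 85.2) in Mtf2 null and 64.5 (54.2 to 76.3) in WT cells, with overlapping intervals, and at 12.7 in Eed null and 10.5 in Jarid2 null cells. Evx1 stood at 60.7 in WT, 23.7 in Mtf2 null, 20.0 in Eed null, and 9.97 in Jarid2 null cells. Fgf8 stood at 136 (120 to 152) in WT, 61.1 in Mtf2 null, 33.1 in Jarid2 null, and 28.9 in Eed null cells, of which the last 2 overlap. Gsc (2.12 to 5.65) and Tbx6 (0.425 to 8.48) were low in every genotype.

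T was seen in 102 of 316 WT cells (32.3%, and 23.9% after thinning each cell to 2500 UMIs), in 74 of 344 Mtf2 null, 35 of 302 Jarid2 null, and 59 of 319 Eed null cells. As background, 0 of the 335 cells of cluster 3, 307 of them WT cells of day 0, held a UMI of T. This allows up to 0.896% of cells to hold such a UMI at a median of 8485 UMIs and does not bound how many cells express T below detection. T also had 0 UMIs in the 340 cells of the WT day 0 library. In the cells of cluster 3 T, Gsc, Lhx1, Evx1, and Tbx6 were all unseen, Mesp1 and Mixl1 were each seen in 1 cell (0.299%), Fgf8 in 2 (0.597%), and Eomes in 11 (3.28%).

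Outside day 7 the genotypes were in another order. On day 4 the Mtf2 null library stood apart, with T at 25.6 (20.0 to 32.4, 70 UMIs in 15 of 331 cells) while the other 3 held at most 1.8, and Eomes at 28.2 (22.2 to 35.2) against 9.34 in WT, 14.7 in Jarid2 null, and 10.2 in Eed null cells. On day 10 T stood at 5.72 (8 UMIs) in WT and 2.2 in Eed null cells but at 49.1 in Mtf2 null and 52.4 in Jarid2 null cells. Fgf8 on day 10 followed the same split, with 59.3 in Mtf2 null and 38.6 in Jarid2 null cells against 5.72 in WT and 1.5 in Eed null cells. Mixl1 did not, with 30.04 in WT against 5.56 in Mtf2 null and 5.19 in Jarid2 null cells. On day 0 Eomes stood at 17.7 in Eed null cells (51 cells, 15.0%, and 3.72% after thinning to 2500 UMIs) and at 3.68 to 7.79 in the other 3 genotypes.

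Cells were also counted by how many of the 9 members they held. On day 7 cells with at least 3 members made up 31.96% of 316 WT cells (26.9 to 37.4), 20.9% of 344 Mtf2 null cells (72 cells, 16.8 to 25.6), 7.62% of 302 Jarid2 null cells (23 cells, 4.89 to 11.2), and 6.90% of 319 Eed null cells (22 cells, 4.37 to 10.3). Thinned to 2500 UMIs the shares were 21.1, 12.1, 5.43, and 3.03%, and to 4000 UMIs 30.2, 17.8, 9.31, and 4.84%, in the same order. On day 4 such cells were found in the Mtf2 null library alone (7 cells), on day 0 in none, and on day 10 they numbered 5 in WT, 14 in Mtf2 null, 13 in Jarid2 null, and 1 in Eed null cells.

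The authors' clusters were built from these same cells and genes, so levels by cluster are a description. Of the 258 cells with at least 3 members, 156 lay in cluster 14, 30 in cluster 20, 28 in cluster 1, and 15 in cluster 21, and of the 102 cells with at least 5 members, 88 lay in cluster 14. Cluster 14 (190 cells, median 6832 UMIs) held 83.1% of all UMIs of Mesp1, 77.3% of Mixl1, 63.9% of Lhx1, 49.5% of T, 46.7% of Eomes, and 32.6% of Fgf8.

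**Figure D4:**
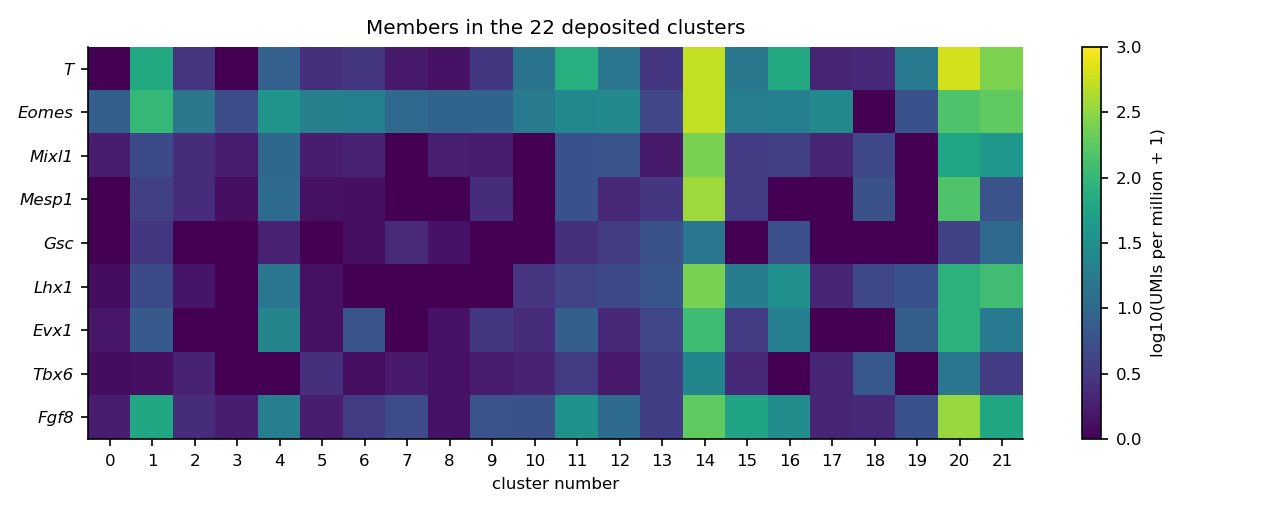
Level of each member (rows) in each of the authors' 22 clusters (columns), colour showing log10 of UMI CPM + 1. Cluster 14 has the highest level of 7 of the 9 members, among them Mesp1 at 367 and Gsc at 14.3 UMI CPM, and cluster 20 has the highest level of T and Fgf8.

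Cluster 14 held T at 535, Eomes at 536, Mesp1 at 367, Mixl1 at 250, Lhx1 at 245, Fgf8 at 183, Evx1 at 115, Tbx6 at 23.1, and Gsc at 14.3, with T seen in 60% of its cells. Cluster 20 (49 cells) was higher for T (616.4) and Fgf8 (346) and lower for Eomes (148), Mesp1 (148), and Mixl1 (58.6). Cluster 21 (47 cells), which the authors class as endodermal and where visceral endoderm markers summed to 2116 and the endoderm genes to 1486, held T at 256, Eomes at 182, and Lhx1 at 120, but 2 UMIs of Mesp1 (4.79). In cluster 14 visceral endoderm markers summed to 33.3 and the mesoderm genes to 1830. Cluster 1 (341 cells), classed as ectodermal by the authors, held Eomes at 98.3, T at 64.8, and Fgf8 at 60.4, with the mesoderm genes at 140 in sum. Cluster 4, classed as mesodermal, held 1486 of the mesoderm genes in sum but Eomes at 35.3, Evx1 at 22.0, and 0 UMIs of Tbx6.

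On day 7 cluster 14 held 91 cells of WT, 54 of Mtf2 null, 12 of Jarid2 null, and 1 of Eed null EBs, and 5 of the Mtf2 null cells of day 4 lay in it. Over all days the Eed null cells were the most frequent in cluster 20 (23 cells, beside 10 WT, 10 Mtf2 null, and 6 Jarid2 null) and the Mtf2 null cells in cluster 21 (33 cells, beside 9, 3, and 2 of WT, Jarid2 null, and Eed null). As the members helped to define the clusters, these numbers restate the levels above by cell.

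Within cluster 14 the genotypes stood in no common order. T stood at 571 (518 to 628) in 97 WT, 433 (381 to 491) in 72 Mtf2 null, and 727 (598 to 877) in 20 Jarid2 null cells. Eomes stood at 551, 537, and 469. Mixl1 was higher in WT (332, 292 to 376) than in Mtf2 null (161, 130 to 198) and Jarid2 null cells (159, 102 to 236), and Evx1 likewise (149, 80.7, and 66.1). Lhx1 was higher in Mtf2 null (316, 271 to 365) than in WT cells (189, 159 to 223). Mesp1 stood at 363 (321 to 409) in WT, 411 (360 to 467) in Mtf2 null, and 225 (156 to 314) in Jarid2 null cells.

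In each genotype most T-positive day 7 cells had no UMI of Mesp1. The share with Mesp1 was lowest in Eed null cells, whose interval overlaps that of Jarid2 null cells (4.81 to 30.3%). Of T-positive day 7 cells, 48 of 102 WT (47.1%, 37.1 to 57.2), 24 of 74 Mtf2 null (32.4%), 5 of 35 Jarid2 null (14.3%), and 3 of 59 Eed null cells (5.09%, 1.06 to 14.2) held a UMI of Mesp1, at median depths of 7342, 7994, 7791, and 7141 UMIs. Eomes was seen in 64.7, 52.7, 42.9, and 25.4% of the T-positive cells, and Fgf8 in 59.8, 44.6, 60, and 35.6%. In cluster 20, T stood at 662 (544 to 799) in the 23 Eed null cells and 578 in the other 26 cells, while Mesp1 stood at 18.2 (3.76 to 53.3, 3 UMIs) against 258 (191 to 340), Fgf8 at 170 (113 to 246) against 495 (401 to 604), Lhx1 at 30.4 (9.86 to 70.9) against 129 (83.4 to 190), and Evx1 at 134 (83.8 to 202) against 41.3 (17.8 to 81.3).

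Outside clusters 14 and 20, day 7 levels of T stood at 45.9 (35.3 to 58.8) in WT, 47.9 in Eed null, 61.8 in Jarid2 null, and 81.3 (69.0 to 95.2) in Mtf2 null cells. The share of cells with T was not in that order, with 38 of 215 WT cells (17.7%), 38 of 281 Mtf2 null (13.5%, holding 155 UMIs), 39 of 296 Eed null (13.2%), and 25 of 287 Jarid2 null cells (8.71%), and at 2500 UMIs it was 9.42% in WT and 9.21% in Mtf2 null cells. Eomes there stood at 105 in WT, 87.6 in Mtf2 null, 63.99 in Jarid2 null, and 21.0 in Eed null cells, while Mesp1 stood at 8.02, 12.6, and 2.23 in the first 3 of these and had 0 UMIs in Eed null cells. Over all 4949 cells, 3784 held none of the members, 120 of the 171 cells with Mixl1 (70.2%) also held Eomes, and 92 (48.7%) and 116 (61.4%) of the 189 cells with Mesp1 held T and Eomes. T was seen in 345 cells, of which 156 also held Eomes.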

How the data were processed

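Directed libraries were rRNA-depleted and sequenced as paired 75 bp reads. The authors mapped them to GRCm38 with Bowtie2 and deposited estimated counts from Salmon, unnormalized. They were rounded here, although 74.9% of mesoderm and 73.1% of endoderm values already were whole. The authors deposited EB values as a signal, counts divided by a DESeq2 size factor. Whole reads were recovered in 45 of 46 columns (within 0.02), and the columns of a sample were added. The remaining column, of day 0 of the Mtf2 label, was not used. The single-cell values are UMI counts as deposited by the authors, who removed poor cells, and the table holds more cells than the study's text counts.

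Each directed series was fitted with edgeR 4.0.16 (TMM, filterByExpr with minimum count 10 and minimum total 15, quasi-likelihood test) over its 24 libraries with 1 mean per genotype and time, in R 4.3.3. For edgeR, values after ± are the absolute log2 change divided by the root of F. They follow from the test, and where a group is near 0 counts they are not the standard error of the change. UD libraries of both series, and all 48 libraries, were also fitted jointly. EBs were fitted with limma 3.58.1 (log2 CPM, prior count 2, at least 1 CPM in 4 samples, day as a block, adjusted p under 0.05), with the 4 days standing in for replicates. The genes tested numbered 18361 (mesoderm), 19261 (endoderm), and 15818 (EBs). The code was tested on simulated data. The members and lists were chosen with earlier results of these data known. The 9 members were named in every comparison, other genes only from the lists or by likeness over libraries. RPKM uses the exon length of GENCODE vM21. Alternatives were DESeq2 1.42.0, other scaling, no filter, a looser call rule, the replicate block, each library or day left out, other EB scales, and thinned cells (2500 and 4000 UMIs).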

Additional observations from a re-analysis of the deposited data

Results flagged for a closer look

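Among groups of 4 libraries, 27 pairs of member and genotype in UD cells of both series were examined for a library far from the other 3, by the gap over the range against Dixon's 95% critical value, which chance passes in about 1 of 20 groups. Of the 27, 2 passed. Tbx6 stood at 0.775 CPM in 1 Jarid2 null library and at 0.451, 0.481, and 0.487 CPM in the others. Lhx1 stood at 0.0896 CPM in 1 WT library and at 0 in the other 3, which is a single count.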

How the results depend on the processing

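Most member results kept their direction and side of the threshold, and none reversed. In the mesoderm series, the genotype calls of members numbered 1 and became 2 without the filter, 5 at an adjusted p under 0.05 without a fold limit, and 0 to 1 with 1 library left out; the calls against UD numbered 13 and became 21 without the filter, 23 at the looser rule, and 12 to 14 with 1 library left out. Over all genes those settings gave 12507 and 39310 in place of 9064 genotype calls. At the looser rule 1 change of genotype effect in the mesoderm series and 1 difference between series were called, in place of 0 each. In the endoderm series the genotype calls stayed at 4 with any library left out and the calls against UD ran from 12 to 13. With 1 library left out the log2 difference of T at 24 h ran from -2.89 to -2.62, that of Lhx1 at 48 h from 4.18 to 9.11, and that of Eomes between Mtf2 null and Jarid2 null mesoderm from 1.09 to 1.31. Thinned to 2500 UMIs, the share of day 7 cells with at least 3 members was 21.1% in WT, 12.1% in Mtf2 null, and 3.03% in Eed null cells.

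Over pairs of groups, deviations of libraries with the same number had a median correlation of 0.00688 in the mesoderm series (-0.183 to 0.267). In the endoderm series the median was 0.0102 (-0.157 to 0.201). Whether some libraries with the same number share a batch cannot be told from these values. With the replicate block, 1, 4, 14, and 13 members' tests were called in the genotype and time families, T differed by -2.75 ± 0.268 (edgeR adjusted p = 1.33e-07) and Lhx1 by 5.21 ± 0.767 (2.19e-05). In the EBs, leaving out the day block still called 0 members, and over all genes reduced 6989 calls to 1355. Mesp1, Gsc, and Tbx6 are limited by depth in the directed series.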
